A study of Nothobranchius furzeri with 12 samples.

Results

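The retina of old adult killifish was compared with that of young adults: 3 male fish at 6.0 months of age against 3 male fish at 1.5 months. The 6 libraries were taken by the age and replicate in their labels, out of 12 libraries in all. The other 6 libraries, 3 fish at 3.0 months and 3 at 4.5 months, entered the statistical fit so that the 4 ages shared an estimate of the spread. All fish were untreated males of Nothobranchius furzeri, the turquoise killifish, and are labelled "GRZ backcross mutant line", a mutant line crossed back to the short-lived GRZ strain. Every group shares this line, and the labels give neither the mutated gene nor which fish carried the mutation, so age and genotype cannot be told apart where carriers were unevenly spread. The tissue was neural retina with the attached retinal pigment epithelium (RPE), from which lens, cornea, iris, sclera and choroid had been dissected. Each library came from 1 biological replicate, whose RNA was extracted on its own.

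The turquoise killifish matures and ages within months, which makes it a model of vertebrate ageing. The fish retina converts light in rods and cones, whose outer segments are renewed with help of the RPE, passes the signal through bipolar, horizontal and amacrine cells to ganglion cells, and is supported by Mueller glia and patrolled by microglia, the resident macrophages of nervous tissue. Unlike the mammalian retina, it keeps adding neurons from a stem cell zone at its rim. Oligodendrocytes wrap the axons of ganglion cells in myelin on their way to the brain.

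Total counts were 46.98 ± 3.15 M per library at 1.5 months and 44.85 ± 3.21 M at 6.0 months (mean ± SD, n = 3 each), from 41.15 M to 50.27 M. Levels below are CPM, counts relative to library sizes scaled by the trimmed mean of M-values (TMM), with no correction for gene length. Log2 changes are 6.0 minus 1.5 months, with their standard error (SE), and adjusted p-values are those of edgeR. Spearman correlation between libraries was 0.9686 to 0.9866 within an age and 0.9588 to 0.9824 between the ages.

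Some of the libraries carried RNA of tissue that the dissection was meant to remove. Lens genes, mostly crystallins that fill the lens fibre cells, summed to 25854.5 CPM in replicate 1 of 6.0 months, against 28.35 and 29.38 CPM in replicates 2 and 3. At 1.5 months the same 27 genes summed to 111.8, 1174.5 and 23.77 CPM in replicates 1, 2 and 3, so replicate 2 was the library high in lens RNA there. Each of the 6 libraries had at least 22 of the 27 lens genes above 0. Cornea and surface epithelium genes, such as keratins and desmosome proteins, summed to 5580.8 CPM in replicate 1 of 1.5 months and to 383.7 and 478.4 CPM in replicates 2 and 3. At 6.0 months they summed to 238.9, 260.1 and 938.4 CPM. Fibroblast genes were high in the library that was high in surface epithelium, with 7782.6 CPM against 630.2 to 1150.2 CPM in the other 5. Skeletal muscle genes summed to 509.6, 420.2 and 559.1 CPM at 1.5 months and to 296.2, 331.4 and 364.1 CPM at 6.0 months, without overlap. Of 23 such genes 9 were lower and 2 higher in every old fish than in any young fish, where 14.7% and 15.9% of all genes were. Whether this came from neighbouring tissue was not tested. Replicate 2 of 6.0 months was low in RPE genes (8059.5 CPM against 12870.8 to 20907.7 CPM in the other 5) and in pigment cell genes (843 CPM against 2189.5 to 3445.9 CPM). RPE defining markers were present in every library, with rpe65, the isomerase of the visual cycle, between 1958.6 and 5963.5 CPM.

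**Figure D1:**
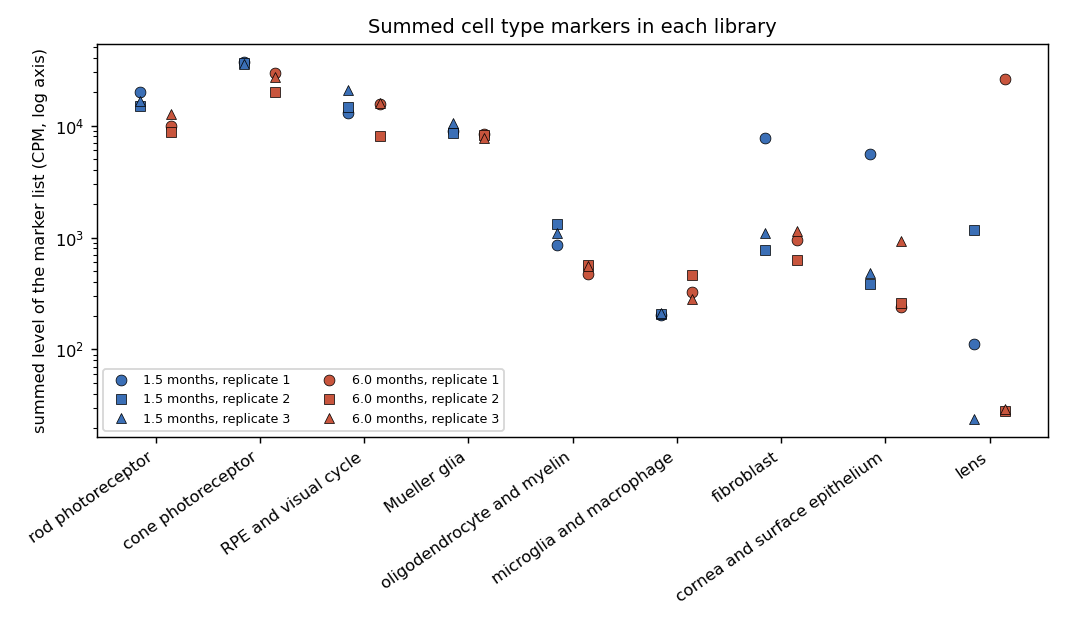
Summed CPM of 9 marker lists (log axis) in each of the 6 libraries; colour gives the age and symbol shape the replicate. The lens list stands at 25854.5 CPM in replicate 1 of 6.0 months and at 28.35 and 29.38 CPM in its replicates 2 and 3, and fibroblast and surface epithelium lists are highest in replicate 1 of 1.5 months.

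Of 20717 genes tested, 363 rose (1.75%) and 212 fell (1.02%) between 1.5 and 6.0 months, in all 2.78% of the genes (edgeR quasi-likelihood test, Benjamini-Hochberg adjusted p under 0.05). Rises were the larger changes, with a median size of 1.25 on the log2 scale and 230 genes changed at least 2-fold; falls had a median size of 0.77 and 66 such genes. Genes that rose had a median level of 4.98 CPM at 1.5 months and 12.1 CPM at 6.0 months. Genes that fell went from a median of 58.4 CPM to 31.8 CPM. The age of 3.0 months already stood between the other means for 324 of the 363 rises and 195 of the 212 falls, and the age of 4.5 months for 334 and 133.

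The libraries of both ages did not overlap in 6342 genes (30.6%), 3300 of them higher (15.9%) and 3042 lower (14.7%) at 6.0 months. This group held all 575 genes that passed the test and 5767 that did not. Separation is thus shared by every called gene and adds no support to a call. With 3 fish against 3, an exact permutation test of a single gene cannot give a two-sided p below 0.1, so the calls borrow their error estimate from other genes and from all 4 ages. At 6.0 months, replicate 2 was the highest library in 225 of the 363 rises, replicate 3 in 95 and replicate 1, the library with the lens RNA, in 43. Replicate 2 was also the lowest library in 102 of the 212 falls. No lens gene was called in either direction (27 tested, median log2 change 3.96, none with separated groups). Of 24 surface epithelium genes 1 rose (4.17%, against 1.75% of all genes) and 0 fell. This was evpl, which encodes envoplakin, at 11.17 to 14.94 CPM at 1.5 months and 23.04 to 33.02 CPM at 6.0 months. Most of that list went the other way, with 22 of 24 genes below 0 and a median of -1.16. Its groups were separated downward for 2 genes and upward for 1. Without replicate 1 of 1.5 months, the library high in these genes, the list's median was 0.64.

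**Figure D2:**
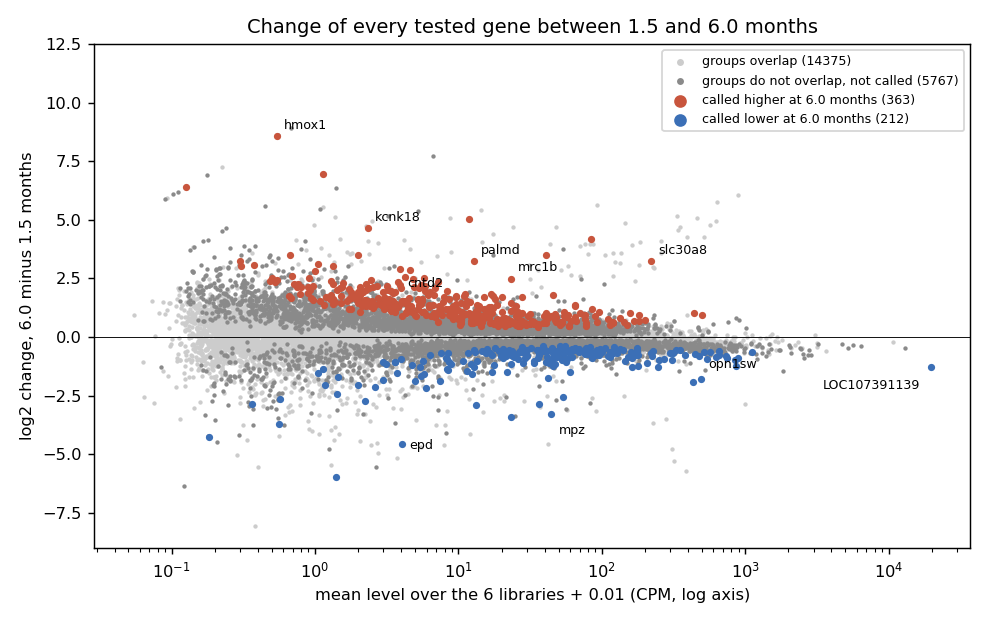
Log2 change against the mean CPM over the 6 libraries (log axis) for each of 20717 genes, with called genes in colour. The 363 rises reach higher log2 changes and lie at lower CPM than the 212 falls, and 5767 genes had separated groups without being called; hmox1, at 0 counts in young fish, is drawn at its fitted change, which is no bound.

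The number of calls depended on single fish. Without replicate 1, 2 or 3 of 1.5 months it was 25, 33 or 8, and without those of 6.0 months 9, 69 or 264; the library whose loss left 8 calls held 23.77 CPM of lens genes. Of the 575 genes, 203 rises and 135 falls passed in 0 of these 6 fits. Without both libraries high in lens RNA edgeR called 0 genes, with 2952 of 21034 at an unadjusted p under 0.05 against 4233 of 20717 in all libraries; without the surface epithelium library as well it called 0, with 1850 of 21639. These fits hold 2 fish an age, and 1 fish of 1.5 months in the last. With the lens level of each library as a term in the fit 516 genes were called, and 84 with the surface epithelium level. Scaling by total counts in place of trimmed means moved the median log2 change of all genes from -0.0051 to 0.169 and gave 925 rises and 92 falls, so that 90.95% of calls were rises, against 63.13%.

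**Figure D3:**
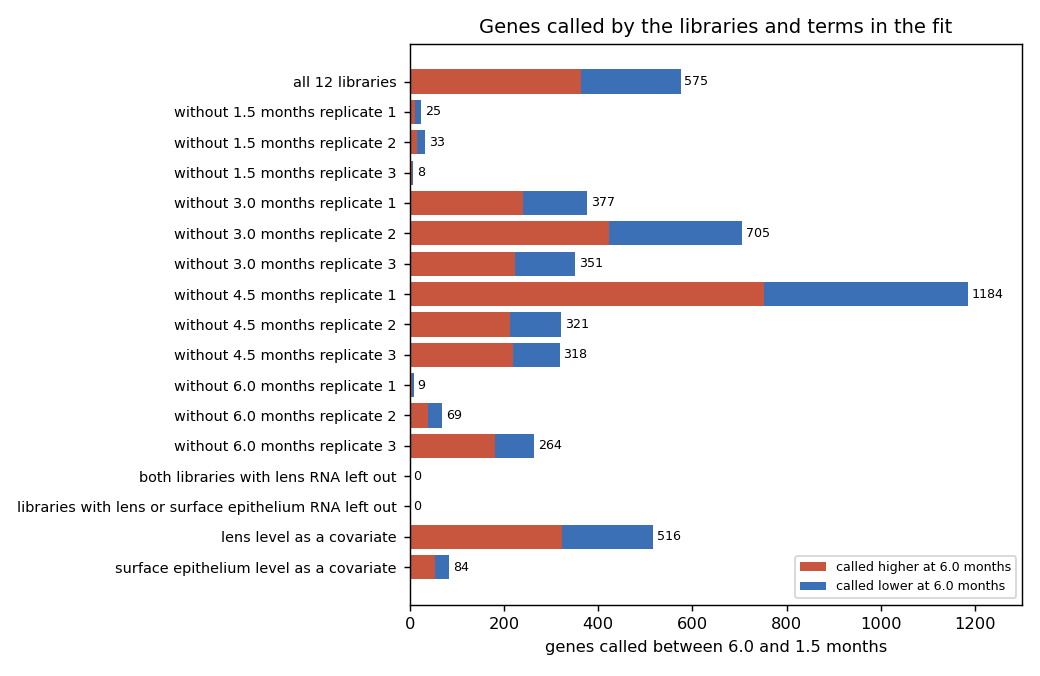
Genes called higher and lower at 6.0 months in 17 fits, which differ in the libraries or terms included. All 12 libraries gave 575 calls, and the 6 fits without 1 library of the compared ages gave 8 to 264.

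In contrast, 4 rises and 2 falls passed in each of the 6 fits that left out 1 compared library, and a further 2 falls passed in 5. Among them were cntd2, palmd, ccdc88b, opn1sw, epd and aplnra. The falling short-wavelength cone opsin gene opn1sw, which makes the photopigment of cones tuned to blue or ultraviolet light, stood at 865.1, 690.6 and 727 CPM in the fish of 1.5 months. It stood at 233.8, 212.8 and 220.6 CPM at 6.0 months (log2 -1.77 ± 0.16, SE; adjusted p = 0.001012). All old fish were far below all young fish, but its path was not even: the mean was 395 CPM at 3.0 months and 669.2 CPM at 4.5 months.

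The gene of ependymin, epd, a glycoprotein secreted into the brain fluid of fish, fell from 8.837, 6.48 and 7.953 CPM to 0.4361, 0.2277 and 0.3231 CPM (-4.56 ± 0.53, adjusted p = 0.007934). The apelin receptor gene aplnra, a vessel gene in zebrafish, fell from 4.345, 3.888 and 3.342 CPM to 0.2907, 0.5694 and 0.8481 CPM (-2.75 ± 0.36, adjusted p = 0.0145). In both genes the highest old fish lay under the lowest young fish. Most of the fall of epd lay before 3.0 months, at a mean of 1.313 CPM there, whereas aplnra stood at 2.062 CPM at 3.0 months and 1.283 CPM at 4.5 months.

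The cyclin-domain gene cntd2 rose from 1.147, 0.7821 and 0.846 CPM to 6.323, 6.794 and 7.553 CPM (2.90 ± 0.25, adjusted p = 0.001012). Its level was close to the final one by 4.5 months, with a mean of 7.079 CPM. Palmdelphin, palmd, a protein of the paralemmin family, rose from 3.222, 2.726 and 1.333 CPM to 19.14, 30.86 and 19.24 CPM (3.25 ± 0.32, adjusted p = 0.00292). It too did not follow age evenly, with means of 11.39 CPM at 3.0 months and 3.975 CPM at 4.5 months. The gene ccdc88b, a coiled-coil protein of immune cells in mouse and human, rose from 3.247, 4.067 and 3.807 CPM to 11, 15.07 and 10.28 CPM (1.71 ± 0.19, adjusted p = 0.005976). Separation was complete for all 3 genes, and replicate 2 of 6.0 months was the highest old fish for palmd and ccdc88b.

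**Figure D4:**
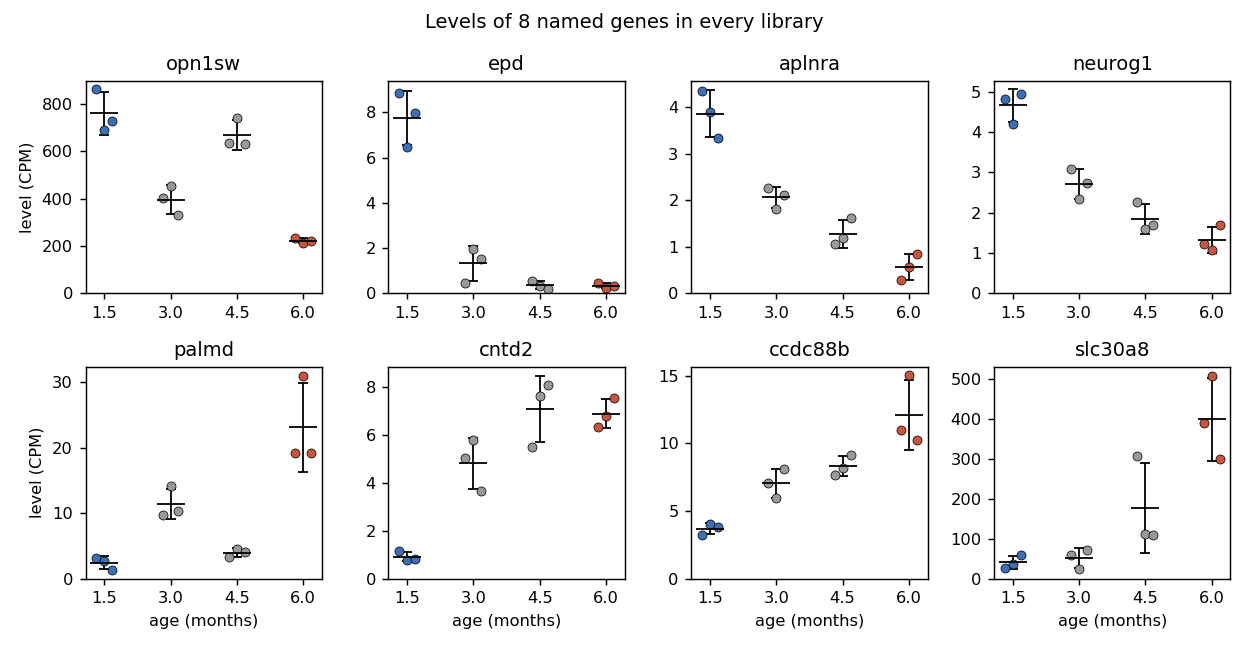
CPM of 8 genes (linear axes from 0) in every library at the 4 ages; points are fish, the bar is the mean and its whiskers the SD over 3 fish. The fall of epd is mostly complete by 3.0 months, opn1sw is high again at 4.5 months, and slc30a8 has its highest mean at 6.0 months.

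Among rises with a gene symbol and a mean of at least 2 CPM at 6.0 months, kcnk18 had the widest gap between the ages. This gene of the TRESK background potassium channel stood at 0.09764, 0.1341 and 0.2961 CPM in young fish and at 4.555, 6.434 and 2.504 CPM in old fish (4.64 ± 0.98, adjusted p = 0.03552). It passed in 0 of the 6 fits that left out 1 compared library, and replicate 1 of 3.0 months already had 5.664 CPM. The zinc transporter gene slc30a8, whose product loads zinc into insulin granules in the mammalian pancreas, went from 28.02, 37.85 and 59.6 CPM to 388.7, 506.3 and 300.7 CPM (3.25 ± 0.52, edgeR adjusted p = 0.01903). It passed in 1 of the 6 fits that left out 1 compared library. Its levels at 4.5 months were 307.6, 112.6 and 110.5 CPM in replicates 1, 2 and 3. This gene was the only one of 26 zinc and metal transporter genes that passed (3.85% rose, against 1.75% of all genes). The median change of these transporter genes was -0.11 (0.08 under total counts), against -0.01 over all tested genes. Further rises named for their gap were capn3b (a calpain protease, 2.26), rapgef1 (an activator of the small GTPase Rap1, 2.15), tspan4 (a tetraspanin, 2.08) and lrrc34 (a leucine-rich repeat protein, 1.99). Their levels at 6.0 months were all low, from 1.962 CPM for the lowest fish of rapgef1 to 9.11 CPM for the highest of tspan4. The falls with the widest gaps, besides those given above and below, were asb15a (an ankyrin repeat protein, -2.43), xpnpep2 (a membrane aminopeptidase, -1.89) and sinhcafl (related to a subunit of a histone deacetylase complex, -1.46).

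Some photoreceptor genes fell. Of 21 rod genes 3 fell (14.3%), 0 rose and 18 were not called, with a median change of -0.63. Of 19 cone genes 2 fell (10.5%), 0 rose and 17 were not called, with a median of -0.42. Over all genes 1.02% fell. The groups were separated downward for 13 rod genes and 11 cone genes, and upward for 1 of each, where 14.7% of all genes were separated downward and 15.9% upward. Total counts gave 1 fall in each list and the DESeq2 Wald test 9 and 7. Each list holds only genes with a symbol and so leaves out LOC107391139, the entry with the highest CPM in these libraries. The whole rod list summed to 20019, 14923.8 and 16651.9 CPM at 1.5 months and to 9890.8, 8819 and 12687.9 CPM at 6.0 months. The cone list summed to 37164.3, 35993.1 and 35605.1 CPM and then to 29466.7, 19884 and 27446.4 CPM. Neither sum overlapped between these ages, but neither fell evenly with age. At 3.0 months the rod list summed to 16449.2, 18013.4 and 15646 CPM, and at 4.5 months to 17209.8, 25422.4 and 24055.7 CPM. The higher sums at 4.5 months were those of replicates 2 and 3, whose library names carry "Resub", which the labels do not explain. Whether this had a part in the higher sums was not tested. The cone list summed to 33011.6, 25754.1 and 32831 CPM at 3.0 months and to 35624.4, 39100.7 and 35019.3 CPM at 4.5 months. In whole tissue, fewer cells of a type and less RNA per cell cannot be told apart.

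The 3 calls of the rod list were genes of the disc rim, the hairpin edge of the membrane discs that hold the photopigment. Tetraspanin gene rom1a had 1489.6, 952.1 and 1212.7 CPM in young and 424, 529.9 and 607.7 CPM in old fish (-1.23 ± 0.21, adjusted p = 0.02006). The related gene rom1 had 1403.6, 903.1 and 1045 CPM and then 454.3, 632 and 630.4 CPM (-0.97 ± 0.22, edgeR adjusted p = 0.03925). Their partner prph2b, a peripherin, had 659.8, 568.6 and 587.2 CPM and then 373.6, 337 and 326.9 CPM (-0.81 ± 0.16, adjusted p = 0.03108). All 3 were lower in each old fish than in any young fish. At 4.5 months prph2b stood at 602.4, 763.1 and 718.2 CPM and rom1a at 1211, 1566.9 and 1490.3 CPM in replicates 1, 2 and 3. The young means were 605.2 and 1218.2 CPM, so only replicates 2 and 3, the "Resub" libraries, lay above them. How the counting divided reads between rom1 and rom1a was not given in the sources used here.

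Several other genes of the light response had lower values in old fish without being called. The rod transducin gene gnat1, the G protein that rhodopsin activates, had 3946.3, 2917.7 and 3146.3 CPM in young and 1611.6, 1347.4 and 2395.4 CPM in old fish (-0.90 ± 0.23, adjusted p = 0.06105). Arrestin gene saga, which quenches rhodopsin, had a change of -0.94 ± 0.29 (adjusted p = 0.1039), and pde6g, a subunit of the rod phosphodiesterase, -0.66 ± 0.17 (adjusted p = 0.06345). The groups did not overlap for these 3. The rod master regulator nrl had higher values in old fish without being called, at 57.79 to 63.69 CPM in young and 65.48 to 74.47 CPM in old fish (0.22 ± 0.21, adjusted p = 0.5724).

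Among cone genes the other call was the short-wavelength opsin opn1sw2, with 985, 857.7 and 935.5 CPM in young and 484.6, 686.2 and 439.2 CPM in old fish (-0.79 ± 0.18, adjusted p = 0.04081). Its mean at 4.5 months was 1014.5 CPM, as high as in young fish. The long-wavelength opsin opn1lw1, of red-sensitive cones, had 2253.1, 3197 and 2608.5 CPM in young and 1176.5, 393 and 1424.3 CPM in old fish, separated but not called (-1.43 ± 0.40, adjusted p = 0.08172), with replicate 2 of 6.0 months the lowest. The cone phosphodiesterase gene pde6c was also separated and not called (-0.63 ± 0.19, adjusted p = 0.09653). Without replicate 1 of 1.5 months, the young fish highest in rom1a and gnat1, 0 rod genes and 1 cone gene fell (medians -0.47 and -0.36). Without replicate 2 of 6.0 months 0 rod and 2 cone genes fell, and without both lens libraries 0 of either (medians -0.59 and -0.56).

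Other retinal cell types had at most 1 call each, in all cases a fall. The call was cabp5b in the bipolar cell list (a calcium-binding protein, 1 of 16 genes) and pdyn in the amacrine cell list (the precursor of dynorphin peptides, 1 of 17). For horizontal cells, ganglion cells and Mueller glia it was tmem130 (1 of 10), atoh7 (1 of 19) and fabp7 (1 of 22). Of all genes 1.02% fell. In the order given, the list medians were -0.13, -0.25, 0.18, -0.44 and -0.25, and 7 of 10 horizontal cell genes lay above 0. The level of tmem130 was low, at means of 1.029 CPM in young and 0.0778 CPM in old fish. The fatty acid binding protein gene fabp7, which also marks neural stem cells, fell from 212.2, 209.9 and 331.3 CPM to 110.9, 113.3 and 99.64 CPM (-1.22 ± 0.23, adjusted p = 0.02561). Old fish were alike, and replicate 3 of 1.5 months stood highest. Summed ganglion cell markers overlapped between the ages, at 2841.1, 4292.4 and 3473.9 CPM and then 2919.9, 1712.1 and 3046.6 CPM. None of 19 RPE genes passed (median -0.26), with replicate 2 of 6.0 months the low library. In the pigment cell list 1 of 11 genes fell: tyrp1b, an enzyme of melanin synthesis, from 34.18, 34.73 and 59.08 CPM to 5.112, 1.404 and 5.553 CPM (-3.41 ± 0.72, adjusted p = 0.03871). Its old fish were all under 6 CPM. It passed in 0 of the 6 fits without 1 compared library. Summed pigment cell markers were 2272, 843 and 2474.1 CPM in replicates 1, 2 and 3 of 6.0 months, against 2189.5 to 3445.9 CPM in the young fish. Whether the amount of pigment tissue had a part in the fall of tyrp1b was not tested. The pigment cell list had a median of -0.64, with 10 of 11 genes below 0. Of these genes 4 were separated downward, tyrp1b among them, where 14.7% of all genes were.

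Some genes of young neurons fell. Of 41 axon and microtubule genes 5 fell (12.2%, against 1.02% of all genes) and 0 rose, with a median of -0.18. The groups were separated downward for 17 and upward for 6, where 14.7% and 15.9% of all genes were. Stathmin gene stmn1b, which destabilizes microtubules in growing axons, had 31.95, 25.72 and 39.07 CPM in young and 10.78, 9.224 and 14.64 CPM in old fish (-1.48 ± 0.23, adjusted p = 0.01832). Doublecortin, dcx, a microtubule binder of migrating neurons, had 52.14, 43.62 and 44.08 CPM and then 22.17, 21.92 and 32.09 CPM (-0.88 ± 0.17, adjusted p = 0.02829). Groups were clearly apart for both. The collapsin response mediator genes dpysl5a (-0.88) and dpysl5 (-0.66), which act in axon guidance, and the microtubule stabilizer gene map6b (-0.72) completed the 5. The list's median depended on scaling, with -0.01 under total counts, where 3 genes fell; the DESeq2 Wald test called 11 falls and 1 rise.

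Some neurogenic transcription factor genes fell as well. The proneural factor neurog1 stood at 4.833, 4.201 and 4.949 CPM in young and 1.211, 1.063 and 1.696 CPM in old fish (-1.81 ± 0.25, adjusted p = 0.01634). The factor atoh7, needed for ganglion cell birth in mouse and zebrafish, stood at 7.177, 7.821 and 10.66 CPM and then 3.053, 1.518 and 3.998 CPM (-1.58 ± 0.32, adjusted p = 0.03126). Every young fish was above every old fish in both. Of 72 developmental transcription factor genes, a list that holds neither of these, foxn4 (-1.03; a factor of horizontal and amacrine cell birth in mouse) and sox4 (-0.83; a factor of immature neurons) fell and 0 rose; 14 were separated downward and 5 upward, where 14.7% and 15.9% of all genes were. Under total counts the list's median turned from -0.11 to 0.07, with 0 falls and 1 rise. Of 98 cell cycle and replication genes, rrm2b (a ribonucleotide reductase subunit, -0.68), cdc25b (a phosphatase that starts mitosis, -0.71) and bub1 (a spindle checkpoint kinase, -1.05) fell. The cyclin gene ccnd2a (0.91) and cdc20b (1.66) rose. These are shares of 3.06% and 2.04%, against 1.02% and 1.75% of all genes, and the list's median was -0.13, or 0.04 under total counts.

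Of the 72 gene lists, the one of myelin genes had the highest share of falls. This rank is a description, since the lists were chosen with earlier results of these data known. Of 18 oligodendrocyte and myelin genes 6 fell (33.3%, against 1.02% of all genes), 0 rose and 12 were not called, with a median of -1.002. The groups were separated downward for 12 and upward for 0, where 14.7% and 15.9% of all genes were. The DESeq2 Wald test called 10 falls. The myelin adhesion protein gene mpz had 32.22, 130.9 and 78.6 CPM in young and 5.79, 8.958 and 9.794 CPM in old fish (-3.30 ± 0.61, adjusted p = 0.02956). The proteolipid protein gene plp1b had 62.39, 121.4 and 90.57 CPM and then 15.87, 7.952 and 23.53 CPM (-2.53 ± 0.51, adjusted p = 0.03201). Young fish varied widely among themselves, highest in replicate 2, and every old fish lay below all of them.

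The other falls of the list were tspan2a (a tetraspanin of myelin, -0.87), the lineage factor olig2 (-1.42) and both enzymes of myelin glycolipids, ugt8 (-1.50) and fa2h (-1.66). The gene ugt8, which makes galactosylceramide, had 21.55, 25.3 and 28.74 CPM in young and 7.777, 6.889 and 11.97 CPM in old fish. Myelin basic protein genes mbpb (-3.37 ± 0.79, adjusted p = 0.05569) and mbpa (-2.81 ± 0.99, adjusted p = 0.1583) were separated without being called, mbpa at 37.84, 284.2 and 114.1 CPM against 18.85, 9.015 and 34.27 CPM. Of 46 sphingolipid and glycolipid enzyme genes 4 fell (8.7%, against 1.02% of all genes) and 0 rose. Among these 4 were ugt8 and fa2h, already counted in the myelin list. The others were degs1 (ceramide desaturase, -0.47) and the ceramide synthase gene cers1 (-1.26), with the list's median at -0.05 (0.13 under total counts). Summed myelin markers were 858.3, 1323.7 and 1099 CPM in young and 476.2, 572.3 and 562.2 CPM in old fish. Over the 6 fits without 1 compared library the list had 0 to 2 falls, with medians of -1.23 to -0.84, and 0 without both lens libraries (median -0.90).

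Among synaptic and chromatin genes the calls went both ways. Of 86 synaptic vesicle and release genes 4 rose (4.65%) and 2 fell (2.33%), against 1.75% and 1.02% of all genes. The list's median was -0.04, and 0.13 under total counts. The falls were syp, the vesicle protein synaptophysin (-0.54), and syt5a, a calcium sensor (713.1, 608.5 and 559 CPM in young, 386.6, 481.4 and 351 CPM in old fish; -0.63 ± 0.15). The rises were unc13b, a priming factor (0.65), and unc13d (1.57), stx7l (1.48) and snap23 (0.59), whose mammalian counterparts serve release and membrane fusion outside synapses, including in immune cells. Of 98 histone and chromatin genes 3 fell (3.06%), among them the histone variant gene h3f3c (-0.76) and the DNA methyltransferase gene dnmt3a (-0.64). The deacetylase gene hdac10 (1.12) was the 1 rise (1.02%), and the list's median was 0.09. In the h3f3c gene the libraries were even, at 220.3, 198.4 and 233.4 CPM against 131.3, 119.3 and 134.2 CPM. Of 17 neuropeptide genes pdyn (-1.59) and crh, corticotropin-releasing hormone (-0.62), fell (11.8%). The NMDA receptor gene grin3ba rose by 1.60 ± 0.25 (edgeR adjusted p = 0.01832), from 2.295, 2.816 and 3.109 to 10.08, 7.724 and 7.169 CPM. It was the 1 call among 39 glutamate receptor genes (2.56%). In each of these called genes the old and young fish were separated, as in all 575 called genes.

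Microglia and macrophage genes had the highest share of rises in the 72 lists. The lists were chosen with earlier results of these data known, so this rank is only a description. Of 26 genes 7 rose (26.9%, against 1.75% of all genes), 0 fell and 19 were not called, with a median of 1.73. The groups were separated upward for 20 and downward for siglec10, where 15.9% and 14.7% of all genes were. Total counts gave 12 rises and the DESeq2 Wald test 16. The mannose receptor gene mrc1b stood at 5.907, 7.508 and 7.509 CPM in young and 30.43, 67.39 and 20.25 CPM in old fish (2.50 ± 0.39, adjusted p = 0.01832). The receptor for the macrophage growth factor CSF1, csf1r, stood at 4.711, 5.274 and 5.88 CPM and then 12.31, 16.47 and 13.23 CPM (1.40 ± 0.21, adjusted p = 0.01832). Young fish were tightly grouped, and among old fish replicate 2 was the highest for both.

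Replicate 2 was the highest old fish in the other called members too. The pan-leukocyte phosphatase gene ptprc (CD45) went from 2.392, 3.329 and 1.481 CPM to 7.752, 12.58 and 7.411 CPM (1.95 ± 0.37), and itgb2, the beta chain of leukocyte integrins, from 2.612, 2.749 and 2.961 CPM to 6.711, 15.07 and 6.805 CPM (1.78 ± 0.37). The remaining 3 were csf1ra (1.92), the granulocyte growth factor receptor gene csf3r (1.76) and the actin bundler gene lcp1 (1.74). Uncalled members with separated groups included p2ry12, a receptor of resting microglia in mammals (1.72 ± 0.44, adjusted p = 0.06099), and the lineage factor spi1b (1.58 ± 0.39, adjusted p = 0.05569). Summed markers were 204.7, 209 and 213.6 CPM in young and 322.6, 458 and 282.3 CPM in old fish. No lymphocyte gene passed (11 tested, median 0.42, 3 separated upward), and summed lymphocyte markers were 16.2 to 18.7 CPM and 19.8 to 23.7 CPM. Without replicate 2 of 6.0 months, which was also the library low in RPE and pigment cell genes, 2 microglia genes rose (median 1.29), without replicate 1 of 1.5 months 0 (median 1.67), and without both lens libraries 0 (median 1.89).

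Genes of cytokine signalling had rises too. Of 28 JAK-STAT genes 5 rose (17.9%) and 1 fell (3.57%), against 1.75% and 1.02% of all genes, and the median was 0.24. The groups were separated upward for 10 and downward for 5, where 15.9% and 14.7% of all genes were. The kinase gene jak3, which serves cytokine receptors of mammalian leukocytes, stood at 0.3662, 0.4916 and 0.5076 CPM in young and 2.132, 2.942 and 1.555 CPM in old fish (2.27 ± 0.39, adjusted p = 0.02006). The transcription factor gene stat6, which acts below interleukin receptors, stood at 13.84, 6.659 and 7.953 CPM and then 26.5, 43.23 and 23.1 CPM (1.71 ± 0.28, adjusted p = 0.01871). Old and young fish were apart in both, with replicate 2 of 6.0 months highest. The kinase gene tyk2 (0.96), the cytokine gene cntf (1.74) and stat3 (0.96) rose too, while socs5, a feedback inhibitor, fell by 0.51 on the log2 scale. The neuroprotective cytokine gene cntf spread widely in old fish, at 14.32, 28.15 and 7.815 CPM, over 4.15, 5.363 and 5.499 CPM in young fish. Without replicate 2 of 6.0 months 0 of these genes passed, and the median was 0.07.

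Of 35 NF-kB and interferon genes 6 rose (17.1%, against 1.75% of all genes) and 0 fell, with a median of 0.57. The groups were separated upward for 15 and downward for 0, where 15.9% and 14.7% of all genes were. Total counts and the DESeq2 Wald test each gave 10 rises. In the main fit the rises included the interferon regulatory factor genes irf8 (1.59), which directs microglia and macrophage development in zebrafish and mouse, and irf5 (0.69). The NF-kB subunit gene nfkb2 (1.64) rose too. The other rises were ADP-ribosyltransferase genes that the list also held, parp9 (0.88), parp4 (1.32) and parp3 (0.68). The lowest adjusted p of the 6 was that of parp9, with 7.543, 6.882 and 7.255 CPM in young and 11.41, 14.14 and 14.24 CPM in old fish (edgeR adjusted p = 0.01771). Of 26 Toll-like receptor and inflammasome genes tlr9 (1.63) and tlr1 (1.65) rose, 11 were separated upward and 0 downward, and the median was 0.44 (5 rises under total counts, 6 by the DESeq2 Wald test). The tlr9 gene, a sensor of unmethylated DNA, stood at 1.172, 1.743 and 1.544 CPM and then 4.433, 5.485 and 3.877 CPM. Among 42 chemokine, interleukin and receptor genes ccr12a rose (2.17) and il13ra2 fell (-1.70). Each is a share of 2.38%, against 1.75% rising and 1.02% falling over all genes. No call was made in 19 phagocyte oxidase and cathepsin genes (median 0.50). Also named for their gap were the myeloid genes cd200r1, an inhibitory receptor in mammals (3.51 ± 0.74, at 2.398, 7.288 and 1.333 CPM in old fish against 0.4394, 0.3575 and 0.1692 CPM), and plek, the signalling protein pleckstrin of mammalian leukocytes and platelets (2.24 ± 0.39). Of complement and coagulation genes 1 of 46 was called (2.17%), the complement inhibitor cd59. It fell from 30.56, 97.92 and 62.61 CPM to 8.576, 5.086 and 12.74 CPM (-2.86 ± 0.61, edgeR adjusted p = 0.04044), and passed in 0 of the 6 fits without 1 compared library. The fish stood in the same order for cd59 as for the myelin gene plp1b at both ages, and as for mpz at 1.5 months only. Whether cd59 fell together with the myelin genes was not tested. Over the 6 fits without 1 compared library, 0 to 5 of the NF-kB and interferon genes and 0 to 1 of the Toll-like receptor genes rose.

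**Figure D5:**
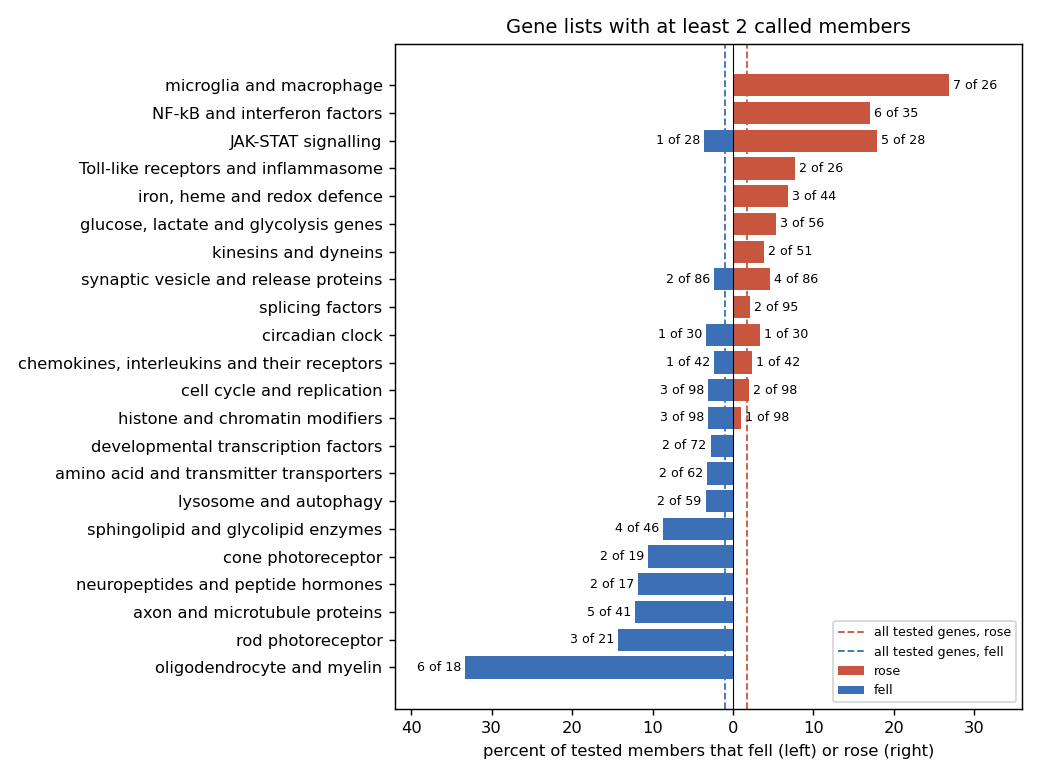
Percent of tested members that rose (right) or fell (left) in those 22 of the 72 gene lists that had at least 2 called members; dashed lines give the shares over all tested genes, 1.75% and 1.02%. Microglia and macrophage genes have the longest bar to the right (7 of 26) and oligodendrocyte and myelin genes the longest to the left (6 of 18).

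Defence against oxidation and energy metabolism had single rises. Of 44 iron, heme and redox genes 3 rose (6.82%) and 0 fell, against 1.75% and 1.02% of all genes. The list's median was -0.12 (0.05 under total counts). Heme oxygenase gene hmox1, which breaks down heme and is induced by oxidative stress, had 0 counts in all 3 young fish, where 3 counts over the group would be 0.02256 CPM. It had 0.6299, 2.202 and 0.3433 CPM in old fish (edgeR adjusted p = 0.0294). Counts pooled over the 3 old fish gave 1.108 CPM, which is 49.1-fold the level of 3 counts in the young group. The other rises were gpx2, a glutathione peroxidase, with 14.92, 15.22 and 15.99 CPM and then 25.07, 27.37 and 27.77 CPM (0.80 ± 0.12, adjusted p = 0.01832), and gsr, glutathione reductase (0.59). The libraries were even within each age for gpx2, and replicate 2 was the highest old fish for hmox1. Of 56 glucose, lactate and glycolysis genes slc2a6 (a sugar transporter, 0.57), hk2 (hexokinase, 0.49) and pdk4 (a kinase that restrains pyruvate oxidation, 0.50) rose (5.36%). The list's median was -0.27 (-0.08 under total counts). A second entry with the symbol slc2a6 was not called. Of the 56, 17 were separated downward and 9 upward, where 14.7% and 15.9% of all genes were.

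Genes of RNA processing, cilia and motors had a few rises. Of 95 splicing factor genes rbm25b (0.83) and srsf2 (0.69) rose and 0 fell (median 0.02; 9 rises and a median of 0.19 under total counts, 10 rises by the DESeq2 Wald test), rbm25b from 97.4, 98.25 and 94.93 CPM to 157.9, 179.5 and 180.3 CPM (adjusted p = 0.02416). Of 60 ciliary and centrosomal genes fbf1, which builds transition fibres at the base of cilia, rose (16.6, 27.04 and 17.68 to 65.58, 66.86 and 79.24 CPM; 1.79 ± 0.32, adjusted p = 0.02335). The old fish stood close together for both genes. Of the ciliary genes 27 were separated upward and 8 downward, where 15.9% and 14.7% of all genes were, and the median was 0.17. Of 51 kinesin and dynein genes kif1c, a cargo motor (0.63), and dnah5, a heavy chain of motile cilia (0.91), rose, and 13 were separated upward against 3 downward. Shares of 2.11%, 1.67% and 3.92% called upward in these 3 lists compare with 1.75% over all genes.

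Some lists had medians below 0 with hardly a gene called. Of 88 nuclear genes of oxidative phosphorylation 84 lay below 0 and 48 were separated downward, against 1 upward and 14.7% downward over all genes; the median was -0.40. Its 1 call was a rise, of the complex I gene ndufs1 (17.4, 24.96 and 20.96 to 36.87, 40.06 and 42.57 CPM; 0.92 ± 0.22, adjusted p = 0.04949). The ATP synthase gene atp5b, of the catalytic beta subunit, was separated downward without being called, at 2008.4, 1513.2 and 1744.3 CPM against 1251.3, 910.4 and 1248.5 CPM (-0.63 ± 0.17, adjusted p = 0.06898). Replicate 2 of 6.0 months was the lowest library for atp5b, and without it the list's median was -0.20. The Wald test of DESeq2 called 12 falls and 1 rise in this list.

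Genes of mitochondrial ribosomes (76 tested, 0 called, median -0.26, 25 separated downward and 0 upward) and of cytosolic ribosomes (78 tested, 0 called, median -0.35, 11 downward and 0 upward) had negative medians. The 11 are a share near the 14.7% of all genes that were separated downward. Without replicate 2 of 6.0 months their medians were -0.14 and -0.12, and under total counts -0.09 and -0.20. Of 23 receptor genes for GABA and glycine, the inhibitory transmitters of the retina, 0 were called, 10 were separated downward and 1 upward (median -0.22, and -0.04 under total counts). The receptor subunit gene gabra6 stood at 239, 172.2 and 171.3 CPM in young and 124.1, 135.3 and 122.8 CPM in old fish (-0.61 ± 0.19, adjusted p = 0.1095). Of 30 genes of retinoic acid and thyroid hormone signalling 0 were called (median -0.24, and -0.05 under total counts). The groups were separated downward for 9 and upward for 2. The gene aldh1a2, which makes retinoic acid, had a change of -0.81 ± 0.27 (edgeR adjusted p = 0.1189). Of 30 circadian clock genes nr1d4a, of the clock's repressor family, rose (1.28) and ciart, a clock-associated repressor of transcription, fell (-0.87). Each is a share of 3.33%, against 1.75% rising and 1.02% falling over all genes. Of these clock genes 12 were separated downward and 2 upward, where 14.7% and 15.9% of all genes were. The nr1d4a mean was 28.99 CPM at 4.5 months against 7.728 to 9.375 CPM in the fish of 6.0 months, and the hour of collection was not given in the sources used here.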

How the data were processed

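RNA of retina with attached RPE went into Nextera XT libraries, which do not mark the strand, and was sequenced from both ends on a NovaSeq S4 lane, per the labels. The authors' deposited count table holds whole, unnormalized read counts for 25122 genes; no label or header names the aligner, counting program, annotation or genome build. Even numbers made up 73.16% of values between 1 and 20, and both mates may have been counted. The NCBI reference table gave symbols to 5257 of 14589 entries that carry only a locus number. An identical second count table and a normalized table were not used.

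The analysis used edgeR 4.0.16 and limma 3.58.1 in R 4.3.3. The function filterByExpr (minimum count 10, minimum total 15) left 20717 genes and 99.98% of counts. TMM factors, robust glmQLFit and glmQLFTest on all 12 libraries gave the contrast of 6.0 minus 1.5 months, with Benjamini-Hochberg adjustment over all genes at 0.05. The common biological coefficient of variation was 0.3063. CPM used TMM-scaled library sizes, with a prior count of 0.5 for gaps on the log2 scale. A gene was separated where the lowest library of one age exceeded the highest of the other. No library was a copy of another (lowest chi-square per gene between libraries 35.43). In simulated counts for this contrast, 45 of 100 genes with a log2 change of 1, 90 of 100 with a change of 2, and 4 unchanged genes were called (20491 genes simulated). These counts were drawn independently for each gene, without the lens or surface epithelium RNA by which the real libraries differed. The recovery and the number of false calls therefore need not hold for the real libraries.

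Named genes are called genes with a symbol, by 3 rules. They are the 12 rises and 12 falls with the widest gap at a mean of at least 2 CPM in the higher age and outside the lens and surface epithelium lists, genes called in at least 5 of the 6 fits without 1 compared library, and called members of the lists at any level, evpl of the surface epithelium list included. A few genes that this rule names are not reported here. Uncalled genes are shown from the lowest adjusted p in their list or for their role. The comparison and the 72 lists (18 of markers) were chosen with earlier results of these data known. Alternatives were other scaling, no filter, DESeq2 1.42.0, fewer libraries, a replicate block, tissue levels as terms, halved counts and a threshold of 0.01; total counts were added after seeing the data. Figures were drawn with matplotlib 3.10.9.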

Additional observations from a re-analysis of the deposited data

How the results depend on the processing

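Against 575 called genes, total counts without scaling factors gave 1017 (chosen after seeing the data), the DESeq2 Wald test 1921, a threshold of 0.01 gave 7, and the surface epithelium level as a term 84. Leaving out both libraries with lens RNA, or these and the surface epithelium library, gave 0. Leaving out 1 of the 12 libraries gave 8 to 1184: 377, 705 and 351 without replicates 1, 2 and 3 of 3.0 months, and 1184, 321 and 318 without those of 4.5 months, of which replicate 1 held 2665.2 CPM of lens genes. Median-ratio scaling (564), no filter (495), the 6 compared libraries alone (692, of which 407 shared), the lens level as a term (516), no Resub libraries (648) and halved counts (646) stayed within 1.5 times. With the replicate block 495 were called, 422 of them shared. Same-numbered libraries of both ages deviated from their age means with correlations of -0.215, -0.2792 and 0.2478, and the 2 lens libraries, of different number, had 0.6119. No label says that the numbers pair the fish, and 3 correlations cannot settle it. Separated genes numbered 6398 under median-ratio scaling and 6676 without a filter, against 6342. Of 2711 values of the 113 named genes under alternatives, 1516 passed, 1195 did not and 0 changed sign, which separated groups largely fix. With 3 fish an age and a simulated recovery of 45 of 100 genes at 2-fold, uncalled genes are not shown to be unchanged. What drives the differences between fits was not tested.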

Other observations

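The groups in this section were chosen after the values were seen, so they are given as descriptions. Over all genes 1.75% rose and 1.02% fell, and 15.9% were separated upward and 14.7% downward. Of 17 leukocyte tyrosine kinase and adaptor genes 8 rose (blnk, plcg2, hck, lcp2, skap2, inpp5d, pik3ap1 and dapp1; 13 separated upward, median 1.18). The B cell and macrophage linker gene blnk stood at 1.611, 1.832 and 1.777 CPM at 1.5 months and 5.451, 4.289 and 4.281 CPM at 6.0 months (1.42 ± 0.23, edgeR adjusted p = 0.01871). A second entry with the symbol hck was not called (0.11). Of 40 motile cilium genes 5 rose (tekt1, cfap74, cfap57, dnah5 and drc3), 0 fell, and 25 were separated upward and 0 downward, with a median of 0.73. The dynein regulatory gene drc3 stood at 8.495, 6.927 and 8.101 CPM and then 12.02, 15.35 and 11.95 CPM. Of 19 genes of the Hermansky-Pudlak complexes, which route cargo to pigment granules and lysosomes, hps4 (0.86), hps5 (0.60) and hps3 (1.00) rose and 0 fell. The splicing kinase gene clk4a (0.96) and the splicing factor gene luc7l3 (0.71) rose.

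Other groups held falls. Of 16 fatty acid elongation genes tecrb (-0.71), elovl4 (-0.77) and hacd2 (-0.53) fell; elovl4, which makes the very long fatty acids of photoreceptor discs, stood at 957.4, 675.9 and 837.3 CPM and then 472.7, 462.4 and 512.1 CPM. Of 7 Zic transcription factor genes zic5 (-1.16), zic2 (-0.74) and zic1 (-0.63) fell. The entry with the highest CPM in these libraries, LOC107391139, a protein coding locus without a symbol in the reference table, fell from 33139, 23162.3 and 27425.5 CPM to 9533.1, 11127 and 13495.8 CPM (-1.29 ± 0.19, edgeR adjusted p = 0.01832), with means of 20805.6 CPM at 3.0 months and 29043.9 CPM at 4.5 months. It passed in 3 of the 6 fits without 1 compared library. Another locus without a symbol, LOC107374235, rose in all 6 of those fits, from 32.59, 40.65 and 41.48 CPM to 69.7, 74.3 and 69.47 CPM (0.90 ± 0.11, edgeR adjusted p = 0.007934).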
